A study of Salmo salar with 30 samples.

Results

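The comparison described here sets Atlantic salmon fed soybean meal with package 2 (P2) against salmon fed soybean meal without a package. P2 held butyrate at 0.01%, β-glucan at 0.1% and nucleotides at 0.05%. Expression was measured in the distal intestine with 1-colour Agilent arrays, 1 array per fish. The comparison used 5 fish per diet and so 10 of the 30 arrays of the study, chosen by their diet labels. The other 20 arrays came from a control feed rich in fish meal, soybean meal with P1 (butyrate at 0.01% and arginine at 1.5%), corn gluten, and corn gluten with P2, again with 5 fish each. Fish of 177 g starting weight were fed for 67 days at 11.2 °C in 18 tanks. Which fish shared a tank is not given in the sources used here, and any likeness of tank mates would make the p-values too small, since they count each fish as independent. How much soybean meal the feeds held is likewise not given in the sources used here. The question was what P2 changed in an intestine exposed to soybean meal.

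The distal intestine is the hindmost gut segment, where salmon take up intact proteins and hold a large share of their gut immune cells. Soybean meal enteritis is a diet-induced inflammation of this segment that has been described in salmonid fish. β-Glucan is a cell wall polysaccharide of yeasts and other fungi that innate immune cells can recognise, nucleotides are the building blocks of RNA and DNA, and butyrate is a short-chain fatty acid that gut epithelial cells can use as fuel.

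Each value below is a level on the log2 scale, with 0 set at the 75th percentile of that array, or a difference between such levels. Of 14841 probes, 13577 were kept because Feature Extraction marked them as well above background on 5 or more of the 30 arrays. On the 10 arrays, 12701 to 13286 probes were well above background, 0 spots were saturated, and the 75th percentile of the signal lay between 606 and 886 intensity units. Correlations between fish of 1 diet, over all kept probes, were 0.967 to 0.980 with soybean meal and 0.965 to 0.986 with soybean meal + P2. The median SD between fish was 0.28 with soybean meal and 0.27 with soybean meal + P2. The probe identifiers of this array could be paired with 0 gene symbols, so no gene names, gene groups or cell type markers are given and the labelled tissue could not be checked against markers. In bulk tissue, fewer cells of a type and less RNA per cell cannot be told apart.

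The arrays of both diets differed in their slope of brightness from left to right. Each array carries spike-in control spots for added RNA, with each control probe printed many times. On each array 3 to 5 control probes were used, with 60 to 100 spots in all, each spot set against the median of its probe. Their signal on the right side of the array (columns 42 to 82) minus the left side was 0.41, 0.40, 0.35, 0.28 and -0.16 on the log2 scale for soybean meal + P2 fish 1 to 5. It was -0.05, 0.11, -0.02, -0.13 and -0.31 for soybean meal fish 1 to 5. So 4 of the 5 arrays with P2 were brighter on the right than every soybean meal array, and P2 fish 5 was below all soybean meal fish but fish 5. The mean was 0.25 ± 0.24 (SD, n = 5) with P2 and -0.08 ± 0.16 (SD, n = 5) without, a difference of 0.33 with an exact two-sided permutation p of 0.0397. That p counts the arrays of a slide as independent. Control fish 3 and 4, on the slide of P2 fish 1 and 2, were at 0.39 and 0.32. On the slide of P2 fish 3 and 4, corn gluten fish 1, 2 and 5 were at 0.34, -0.23 and -0.07, and soybean meal fish 5 at -0.31. Whether the slope goes with slide or with diet was not tested. The kept probes followed the same slope. Their median difference between both diets went from -0.10 in the leftmost of 8 bands of columns to 0.11 in the seventh band and 0.10 in the eighth. Of the probes called higher with P2, 76.6% lay on the right side, and of those called lower 34.8%, against 50.1% of all kept probes. A smooth surface over the array was therefore also removed from each array, separately in 4 classes of brightness, and results are given with and without this step, which was added after the slope had been seen. With the surface removed, the median difference of the 8 bands lay between 0.02 and 0.05.

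**Figure D1:**
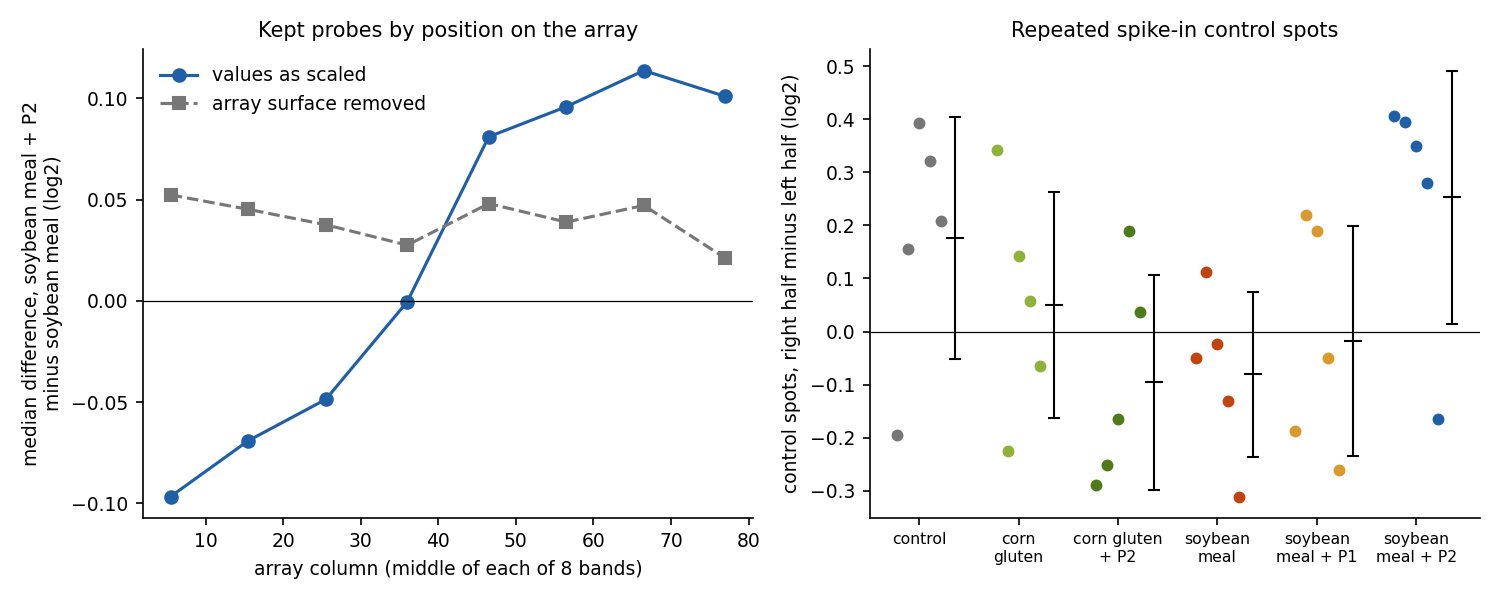
The left panel plots the median difference between soybean meal + P2 and soybean meal (log2) over the kept probes in 8 bands of array columns, as scaled and with the array surface removed. The right panel plots, for each of the 30 arrays by diet, the spike-in control spots on the right side minus the left side (log2), with the mean and SD beside the 5 points; 4 of the 5 arrays of soybean meal + P2 lie at 0.28 or above.

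Few probes separated both diets, and most of those were higher with P2. At an adjusted p below 0.05, 168 of 13577 probes differed (1.24%), of which 145 were higher with P2 (1.07%) and 23 were lower (0.169%). An unadjusted p below 0.05 was reached by 2993 probes (22%), of which 1865 were higher and 1128 lower. The median difference of the called probes was 0.85 for those higher, or 1.80-fold, and ranged from 0.33 to 2.85. For those lower it was -1.25, or 2.38-fold, and ranged from -2.35 to -0.52. The median over all kept probes was 0.03. Because the same arrays chose these probes, the sizes are a description.

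The number of called probes depended on single fish and on the processing. Without soybean meal fish 1, 3 probes were called, without P2 fish 1 there were 9, and without P2 fish 4 there were 11. Without P2 fish 3 there were 36, without soybean meal fish 3 there were 59, without soybean meal fish 4 there were 92 and without P2 fish 2 there were 102. Without P2 fish 5, the array with the opposite slope, there were 459, and without soybean meal fish 2 there were 256. In each fit that left out 1 fish, all 168 probes kept their direction, but the fish that remained had also chosen these probes. The 10 arrays lay on 5 slides, of which 1 held fish of both diets. With slide as a block, 2 probes were called, and with normexp background correction, 2. Under normexp 152 of the 168 probes kept their direction, and with the slide block all did. The 5th percentile under normexp was -2.05 in soybean meal fish 3 and -1.91 in control fish 2, beside -3.94 to -3.40 on the other arrays. Without these 2 fish all 168 probes kept their direction under normexp, and 2 were called. That setting was added after seeing the data. On the shared slide, which held 1 soybean meal fish and 2 fish with P2, all 145 and all 23 probes had the same direction as in the whole comparison, with medians of 0.74 and -1.26; these 3 fish are among the 10 that chose the probes.

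With the array surface removed, 459 probes were called (3.38%), of which 381 were higher with P2 (2.81%) and 78 were lower (0.575%). Of the 168 probes, 137 higher and 20 lower ones were still called and 11 were not, and 167 kept their direction. The median difference was 0.60 for the 381 and -0.90 for the 78. Of the 381 higher probes, 52.8% lay on the right side of the array, and of the 78 lower ones, 70.5%, beside 50.1% of all kept probes. The lower calls were thus still uneven over the array, on the other side than as scaled (34.8%). This count also rested on single fish: it was 8, 214 and 277 without P2 fish 4, 1 and 2, 34.2% of the 459 without P2 fish 3, 11 when soybean meal fish 1 was left out and 227 when soybean meal fish 3 was. Without each of the other fish it was 364 to 602. With slide as a block on top of the surface, 3 probes were called, and in a fit to the 10 arrays alone, 33. When the slope of the control spots entered the fit as a covariate in place of the surface, 5 were called, all higher with P2.

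Of all kept probes, 396 were more than 2-fold higher with P2 and 52 of these were called (13.1%), beside 1.07% of all kept probes. A further 533 were more than 2-fold lower and 15 of these were called (2.81%), beside 0.169% of all. The fold and the call come from the same difference, so a greater share of calls among large differences is built in. More than 4-fold differences were seen in 61 probes higher and 69 lower, of which 9 and 2 were called. Probes past 2-fold were mostly dim: 263 of the 396 and 312 of the 533 were in the dimmest of 4 equal classes of brightness. Their fish varied widely, with a median SD of 0.68 with soybean meal and 0.82 with P2 for the higher ones, and 0.93 and 0.85 for the lower ones. The called probes varied less, with a median SD of 0.27 and 0.22 for the higher ones and 0.45 and 0.29 for the lower ones; a low spread helps a probe to be called.

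The higher and lower probes differed in brightness on the array, which is not a level of RNA that can be compared between probes. From the dimmest to the brightest of the 4 classes, the higher ones numbered 28, 48, 30 and 39, and the lower ones 9, 8, 5 and 1. The median processed signal was 141 intensity units for the higher probes, 38.9 for the lower ones and 166 for all kept probes. Of the 145 higher probes, all but 12 were well above background on all 10 arrays, and 5 were on no array of soybean meal. Of the 23 lower probes, 17 were on all 10 arrays, and 3 were on no array with P2. Of all 13577 kept probes, 11983 were well above background on all 10 arrays, 154 on no array of soybean meal and 113 on no array with P2. A call for a difference favours probes that are low in 1 of the diets.

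Levels of both diets did not overlap for 108 of the 145 higher probes and 17 of the 23 lower ones. Over all kept probes, the lowest fish with P2 was above the highest soybean meal fish for 449 probes (3.31%), and the reverse held for 182 (1.34%). Both counts rest on the fish that chose the probes.

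**Figure D2:**
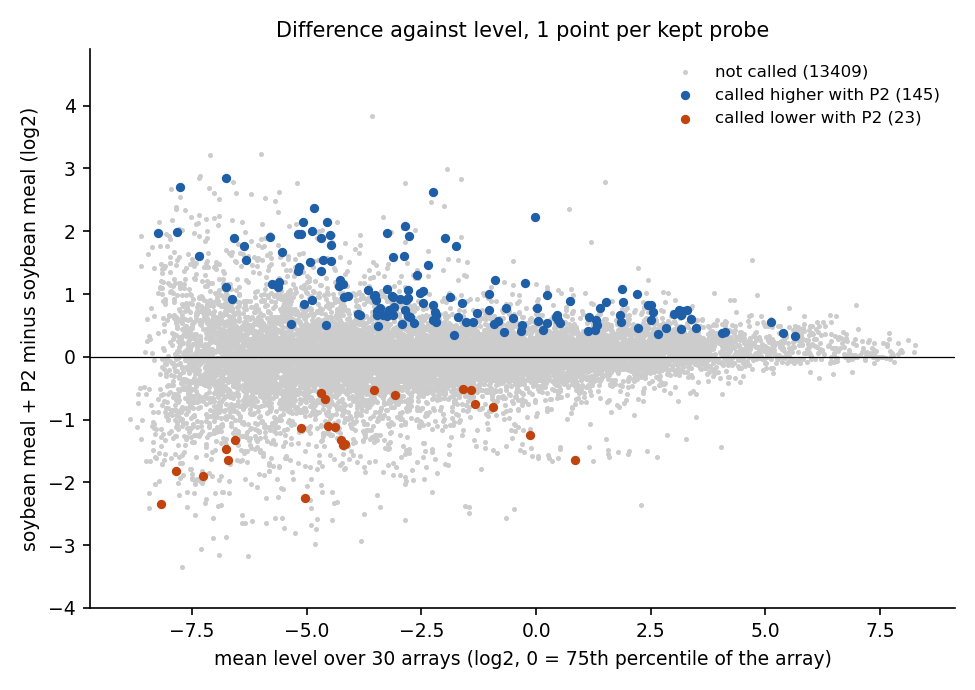
Each point is a kept probe, with its mean level over 30 arrays on the x axis (log2, 0 at the 75th percentile of the array) and the difference of soybean meal + P2 minus soybean meal on the y axis (log2). The 145 probes called higher spread over all levels, the 23 called lower sit mostly at low levels, and uncalled probes of large difference sit at low levels.

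The single probes described are the 2 higher and the 2 lower with the smallest p among called probes that were well above background on all 10 arrays. Omy#S15290645 was the probe with the smallest p. Its levels were -6.51, -6.52, -6.01, -6.03 and -6.04 in soybean meal fish 1 to 5, and -4.16, -4.25, -4.14, -3.98 and -4.82 in P2 fish 1 to 5. The diets did not overlap, and P2 fish 5 lay below the other fish with P2 but above every soybean meal fish. The difference was 1.95 ± 0.29 (SE, n = 5 per diet; limma adjusted p = 0.00480), or 3.87-fold. It was 1.61 ± 0.24 (SE; adjusted p = 0.00392) with the surface removed. This was a dim probe, with processed signals of 8.76 to 13.4 with soybean meal and 28.4 to 54.3 with P2. Under normexp background correction, which adds an offset of 50, the difference was 0.23 (adjusted p = 0.586). Under normexp without soybean meal fish 3 and control fish 2 it was 0.57 (limma adjusted p = 0.0816). With slide as a fixed block it was 1.64 (adjusted p = 0.212). Levels in the control, corn gluten, corn gluten + P2 and soybean meal + P1 diets were -4.53 ± 0.25, -4.98 ± 0.79, -5.14 ± 0.19 and -5.58 ± 0.66 (mean ± SD, n = 5). The mean with soybean meal was thus the lowest of the 6 diets and the mean with P2 in soybean meal the highest. The probe was chosen for its difference between these 2 diets, which favours such ranks.

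Ssa#S35523722 was the second probe higher with P2. Its levels were -4.68, -4.87, -4.47, -4.40 and -5.32 in soybean meal fish 1 to 5, and -3.71, -3.78, -4.13, -3.65 and -3.61 in P2 fish 1 to 5. The diets did not overlap, and P2 fish 3 and soybean meal fish 4 came nearest to each other. The difference was 0.97 ± 0.15 (SE, n = 5 per diet; adjusted p = 0.00495), or 1.96-fold, and 0.82 ± 0.16 (SE; adjusted p = 0.0150) with the surface removed. Signals were 18.7 to 38.9 with soybean meal and 46.3 to 68.1 with P2, and under normexp the difference was 0.15 (adjusted p = 0.670). Under normexp without soybean meal fish 3 and control fish 2 it was 0.44 (limma adjusted p = 0.0613). With slide as a fixed block it was 1.22 (limma adjusted p = 0.0315). Levels in the control, corn gluten, corn gluten + P2 and soybean meal + P1 diets were -4.31 ± 0.20, -3.99 ± 0.33, -3.97 ± 0.10 and -3.82 ± 0.05 (mean ± SD, n = 5). The mean with soybean meal alone was again the lowest of the 6 diets, a rank that the choice of the probe favours.

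Ssa#CA037592 was the lower probe with the smallest p, and lay in the brightest of the 4 classes. Its levels were 2.93, 2.28, 2.80, 1.08 and 3.81 in soybean meal fish 1 to 5, and 1.15, 0.97, 0.88, 0.94 and 0.73 in P2 fish 1 to 5. The diets overlapped, since soybean meal fish 4 was below P2 fish 1, and soybean meal fish ranged widely while the fish with P2 lay close together. The means were 2.58 ± 1.00 with soybean meal and 0.93 ± 0.15 with P2 (SD, n = 5). The difference was -1.64 ± 0.30 (SE, n = 5 per diet; adjusted p = 0.0169), or 3.12-fold lower, and -1.64 ± 0.29 (SE; adjusted p = 0.0124) with the surface removed. Without soybean meal fish 1 it was -1.56 (adjusted p = 0.0595), and in a fit to the 10 arrays alone the adjusted p was 0.0744. With the control-spot slope as a covariate it was -1.56 (adjusted p = 0.114), and with slide as a fixed block -2.18 (limma adjusted p = 0.0482). Signals were 1631 to 10444 with soybean meal and 1338 to 1653 with P2, and under normexp the difference was -1.56 (adjusted p = 0.0478). Under normexp without soybean meal fish 3 and control fish 2 it was -1.56 (limma adjusted p = 0.0548). Levels were near 0 without soybean meal, at -0.07 ± 0.08 with control, 0.12 ± 0.23 with corn gluten and 0.33 ± 0.36 with corn gluten + P2, and 1.25 ± 0.42 with soybean meal + P1 (mean ± SD, n = 5). Every fish with P2 in soybean meal was above every control fish.

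Ssa#GRASP209733681 was the second lower probe. Its levels were -3.32, -3.48, -3.23, -2.57 and -3.64 in soybean meal fish 1 to 5, and -4.74, -4.49, -4.74, -4.95 and -4.29 in P2 fish 1 to 5. The diets did not overlap. The difference was -1.40 ± 0.26 (SE, n = 5 per diet; adjusted p = 0.0169), or 2.63-fold lower, and -1.20 ± 0.23 (SE; adjusted p = 0.0150) with the surface removed. Under normexp it was -0.87 (adjusted p = 0.0908), and with slide as a fixed block -1.18 (adjusted p = 0.251). Under normexp without soybean meal fish 3 and control fish 2 it was -0.69 (limma adjusted p = 0.0523). With the control-spot slope as a covariate it was -1.05 (adjusted p = 0.143), and without soybean meal fish 1, P2 fish 1 or P2 fish 4 the adjusted p was 0.0595, 0.0517 and 0.0519. Levels in the control, corn gluten, corn gluten + P2 and soybean meal + P1 diets were -4.53 ± 0.50, -4.49 ± 0.64, -4.20 ± 0.32 and -3.85 ± 0.25 (mean ± SD, n = 5). The mean with soybean meal alone was the highest of the 6 diets for both lower probes, a rank that the choice of these probes favours.

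**Figure D3:**
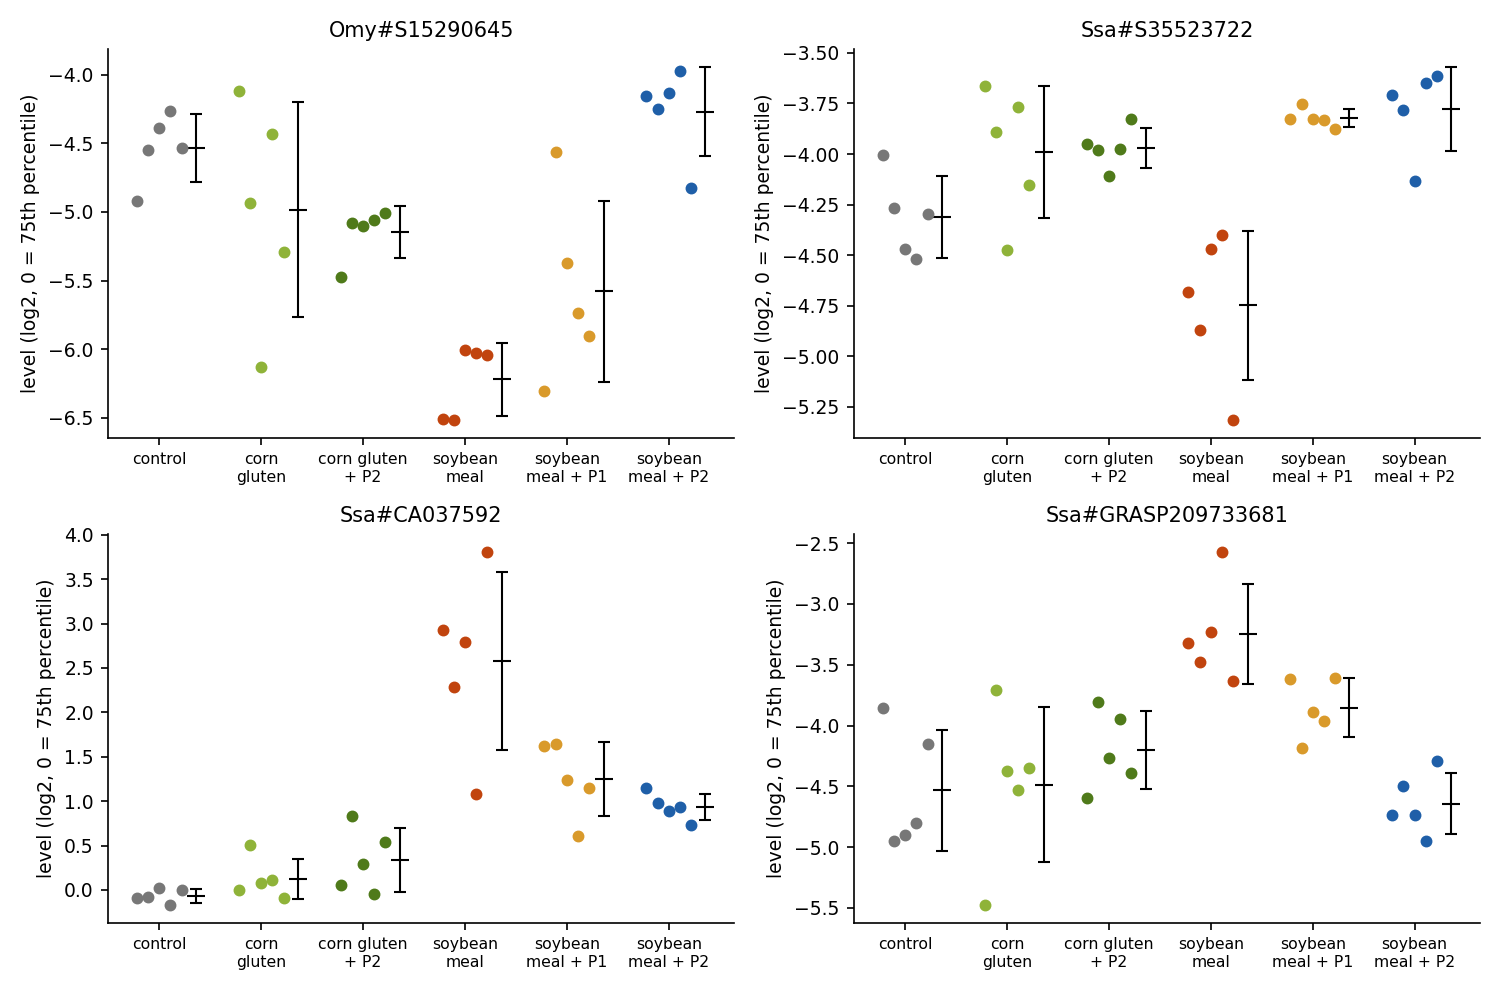
Levels (log2, 0 at the 75th percentile of the array) of the 4 named probes in each fish of the 6 diets, with the mean and SD beside each 5 points. The upper probes are higher with P2 in soybean meal and the lower probes are lower; only for Ssa#CA037592 do soybean meal and soybean meal + P2 overlap.

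The called probes were then read in comparisons between the other 4 diets. Their fish are not part of the P2 difference, but they entered the shared estimate of the spread and the filter on dim probes. Separate fits, which share no estimate of the spread, are therefore given as well. They kept the filter over all 30 arrays, and the array surface was fitted to deviations from each probe's mean over all 30. Slides were shared too: control fish 3 and 4 lay on a slide with P2 fish 1 and 2 of soybean meal. Soybean meal fish 1 and 2 lay on another with soybean meal + P1 fish 3 and 4. A difference between slides therefore cannot be told apart from diet in this reading, and was not tested. The comparison of soybean meal + P1 with control sets a soybean meal feed, which also held P1, against fish meal. Of the 145 probes higher with P2, 80 were lower with soybean meal + P1 than with control (55.2%) and 4 were higher (2.76%). Over all kept probes the same calls were made for 15.1% lower and 14.8% higher. The median difference was -0.69, against -0.05 over all kept probes, and 129 of the 145 were below 0, beside 7367 of all 13577 kept probes. Of the 23 probes lower with P2, 6 were higher with soybean meal + P1 than with control (26.1%) and 0 were lower, at a median of 0.42. At an unadjusted p below 0.05, 9 of the 23 were higher and 0 lower, beside 2550 higher and 2854 lower of all 13577 kept probes. With the surface removed, 219 of the 381 higher probes (57.5%) were lower with soybean meal + P1 than with control and 5 were higher, beside 16.7% and 15.5% of all kept probes. Of the 78 lower probes, 26 (33.3%) were higher and 0 were lower. In a separate fit to the 10 arrays alone, added later, 126 probes were called higher with P2 (0.928%) and 72 lower (0.53%), and 76 of the 168 remained. Read in a fit to the other 20 arrays alone, 56 of the 126 (44.4%) were lower with soybean meal + P1 than with control and 2 were higher, beside 15.3% and 14.6% of all kept probes. Of the 72, 5 (6.94%) were higher, under the share of all kept probes, and 0 were lower. A positive difference was seen in 69 of the 72, beside 6209 of all 13577 kept probes. In corn gluten against control 63 of the 72 were positive too, beside 6362 of all kept probes. With the surface removed, the fit to the 10 arrays alone called only 25 probes higher (0.184%) and 8 lower (0.0589%). Of these, 16 of the 25 were lower with soybean meal + P1 than with control in the other 20 arrays and 1 of the 8 was higher, beside 17.4% and 15.7% of all kept probes. Thus probes that stood higher with P2 lay mostly below control in the soybean meal + P1 fish. Most also lay below control in the corn gluten fish, by a smaller median, as given below. The slope of the arrays moves with soybean meal + P1 against control too. Its median difference over all kept probes was 0.00 in the leftmost band of columns and -0.10 in the rightmost, opposite to the comparison of P2. With the surface removed the median of the 381 probes was -0.55.

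P2 was also given with corn gluten. The names of the deposited files mention pea for both corn gluten feeds, which the labels do not, and what else these feeds held is not given in the sources used here. In corn gluten + P2 against corn gluten, 0 of 13577 probes were called by limma (0%), and 1028 had an unadjusted p below 0.05 (7.57%). Of the 145 probes, 60 had a positive difference and 85 a negative one, at a median of -0.03. Over all kept probes 53.1% had a positive difference, at a median of 0.02. At an unadjusted p below 0.05, 1 of the 145 was higher and 11 were lower, beside 660 higher and 368 lower of all 13577 kept probes. Of the 23 lower probes, 13 had a positive difference, at a median of 0.08, and 0 had an unadjusted p below 0.05. With the surface removed, 0 probes were called and the median of the 381 was -0.03. The separate fits gave medians of -0.08 for the 126 higher probes and 0.67 for the 72 lower ones. Of the 72, 67 had a positive difference, beside 53.1% of all kept probes. Corn gluten against control gave 9 called probes (0.0663%), none of them among the 168, with a median of -0.11 over the 145 and 0.15 over the 23. Of the 145, 95 were below 0, beside 7214 of all 13577 kept probes, and 17 of the 23 were above 0. With the surface removed, 23.4% of the 381 had a positive difference, beside 45.6% of all kept probes. In the separate fits, 86 of the 126 higher probes were below 0, and 22 of the 25 with the surface removed. The control fish are shared with soybean meal + P1 against control.

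Whether the P2 difference itself varied with the plant protein was tested as an interaction. It was called for 14 probes (0.103%), of which 10 had the greater P2 minus no-package difference in soybean meal and 4 in corn gluten. Of the 145 probes 9 were among these, and 0 of the 23; the interaction contains the difference that chose these probes, so this overlap is not independent. Omy#S15290645 was one of the 9, at 2.11 ± 0.41 (SE; limma adjusted p = 0.0483). The interaction was called for 0 probes with the array surface removed, 0 under normexp, 0 with slide as a fixed block, 3 with slide as a random block and 63 with fish number as a block.

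**Figure D4:**
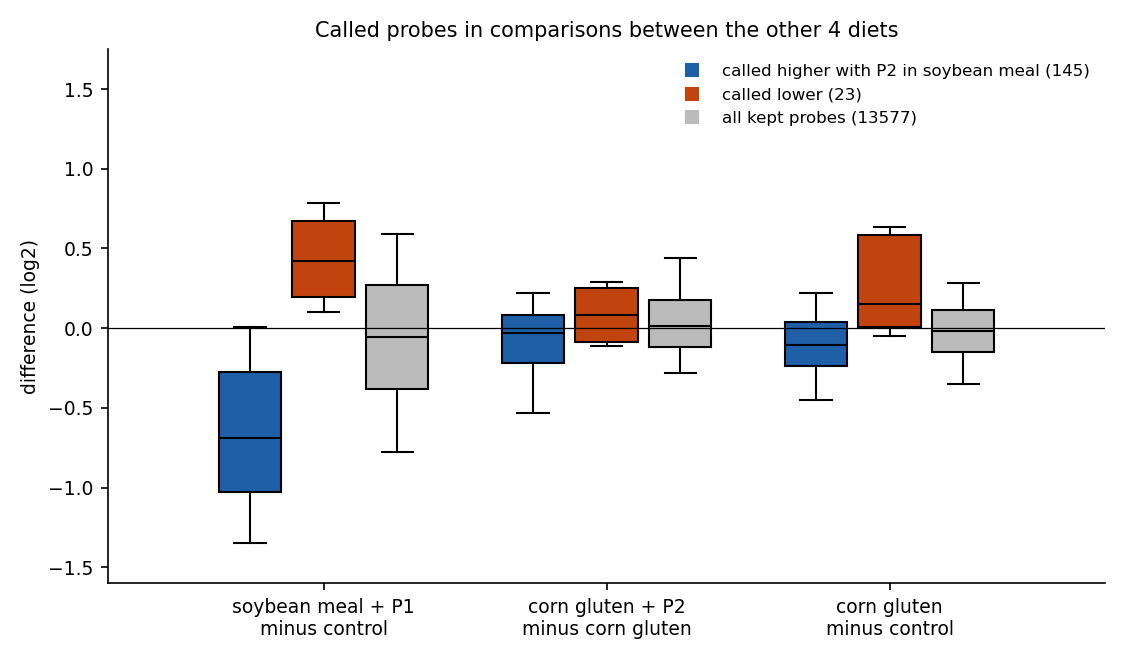
Box plots of the difference (log2) of the 145 probes higher and the 23 lower with P2 in soybean meal, and of all kept probes, in 3 comparisons between the other 4 diets. Lines are medians, boxes the middle 50% and whiskers reach towards the 10th and 90th percentiles; the 145 probes have a median of -0.69 in soybean meal + P1 against control and -0.03 in corn gluten + P2 against corn gluten.

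Levels of the 145 probes were also summarised per fish. The fish of soybean meal and soybean meal + P2 chose these probes and the 23 lower ones, so their separation follows from the choice. The median over these probes was -3.62, -3.18, -3.28, -3.16 and -3.11 in soybean meal fish 1 to 5 and -2.10, -2.35, -2.19, -2.22 and -2.48 in P2 fish 1 to 5. It was -2.60 to -1.68 in control fish, -2.47 to -1.87 with corn gluten, -2.51 to -2.14 with corn gluten + P2 and -3.23 to -2.59 with soybean meal + P1. The 5 fish of soybean meal + P1, which entered the choice of probes only through the shared spread and the filter, included 4 that were below the lowest control fish. Some of these fish shared slides with the soybean meal fish, as given above. For the 23 lower probes, the median was -4.02 to -3.34 with soybean meal, -4.93 to -4.49 with P2, -5.13 to -4.20 with control and -4.62 to -4.15 with soybean meal + P1. It was -4.92 to -3.74 with corn gluten and -4.45 to -3.95 with corn gluten + P2, so both ranges reached into that of soybean meal.

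The response to soybean meal with P1 was measured with a soybean response score, whose probes were called without any fish of both diets. In the values as scaled, these fish entered the choice of probes only through the filter on dim probes. In this score soybean meal and P1, which like P2 held butyrate, cannot be told apart. The fish that chose its probes shared slides with the compared fish, as given above. A difference between slides and one between diets therefore cannot be told apart either. The probes were the 3632 called in a fit to the soybean meal + P1 and control arrays alone, 1698 raised and 1934 lowered with soybean meal + P1. A fish's score is its mean level over these probes, with the sign turned for the lowered ones and 0 set at the corn gluten mean. A higher score is a stronger shift in the direction of soybean meal + P1 against control. The scores were 0.61, 0.73, 0.80, 0.49 and 0.55 in soybean meal fish 1 to 5, and 0.41, 0.47, 0.28, 0.36 and 0.62 in P2 fish 1 to 5. All 10 fish were above all corn gluten fish, and 4 of the 5 fish with P2 were below every soybean meal fish, while P2 fish 5 was within their range. The mean was 0.64 ± 0.13 with soybean meal and 0.43 ± 0.13 with P2 (SD, n = 5), a difference of -0.21. The exact two-sided permutation p was 0.0397, or 0.0595 after Benjamini-Hochberg adjustment over the 3 scores, so the difference did not pass the threshold of 0.05. Without P2 fish 5 it was -0.26 (exact permutation, adjusted p = 0.0238) and without soybean meal fish 4 it was -0.24 (exact permutation, adjusted p = 0.0476), and without any other single fish the adjusted p was 0.0714 to 0.119.

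The lowered and raised probes were also scored apart. Over the lowered probes the mean was 0.74 ± 0.14 with soybean meal and 0.44 ± 0.17 with P2 (SD, n = 5), a difference of -0.31 (exact permutation p = 0.0238, adjusted p = 0.0595). Here too 4 of the 5 fish with P2 were below every soybean meal fish. Over the raised probes it was 0.52 ± 0.12 and 0.42 ± 0.09, a difference of -0.10 (exact permutation p = 0.190, adjusted p = 0.190), and 1 of the 5 fish with P2 was below every soybean meal fish. Whether the raised and lowered probes differed from each other was not tested. The smallest p this design allows is 0.00794. On the shared slide the difference over all probes was -0.23. With the array surface removed the differences were -0.21, -0.31 and -0.09 over all, lowered and raised probes. Their adjusted p was 0.0595, 0.0595 and 0.198 by exact permutation. Under normexp they were -0.12, -0.19 and -0.05, with adjusted p of 0.119, 0.119 and 0.389 from the exact permutation test. The same score did not separate corn gluten + P2 from corn gluten, at a difference of -0.03 (exact permutation p = 0.627). These feeds are not labelled as soybean meal, and corn gluten against control gave only 9 called probes (0.0663%). There was thus little response for P2 to lower, and this comparison cannot judge such a lowering.

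**Figure D5:**
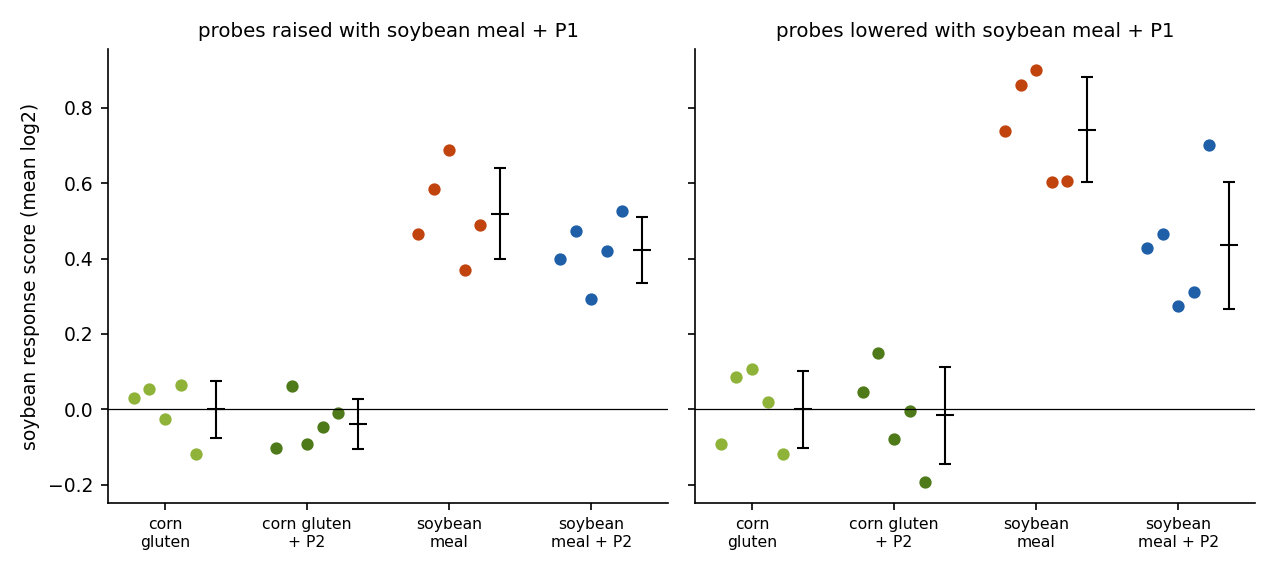
Soybean response score per fish (mean log2 over the probes, 0 at the corn gluten mean, sign turned for lowered probes), with the mean and SD beside each 5 points, for probes raised (left) and lowered (right) with soybean meal + P1 against control. Over the lowered probes 4 of the 5 fish with P2 lie below every soybean meal fish, and over the raised probes the diets overlap.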

How the data were processed

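Per the labels' protocols, Cy3-labelled RNA was made from total RNA of the distal intestine by an amplification kit. The array scans were read with Agilent Feature Extraction 12.0.1.1, per the file headers, and the processed signal the authors deposited is a background-subtracted intensity on a linear scale, not scaled between arrays. A deposited table of intensity values, which the authors scaled by 1 factor per array, served as an alternative.

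The log2 of the processed signal minus each array's 75th percentile over non-control probes was used. Outlier spots were set to missing (169 on the 10 arrays). Probes well above background on at least 5 of 30 arrays were kept. limma 3.58.1 in R 4.3.3 fitted 1 coefficient for each diet over the 30 arrays, followed by eBayes, with Benjamini-Hochberg adjustment over all kept probes and a threshold of 0.05, and the fit was tested on simulated data. Single values were compared with exact permutation tests over 252 arrangements. The array surface is a loess fit (span 0.3) over rows and columns. Normexp (offset 50) used spot medians, since the planned spot means were not in the columns used here.

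Of 14841 probe identifiers, 0 matched the RefSeq table of gene symbols, so gene lists were not used. The named probes are, of those called and well above background on all 10 arrays, the 2 higher and the 2 lower with the smallest p. The comparison, the lists and the tests were chosen with earlier results of these data known. Array number limits the precision.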

Additional observations from a re-analysis of the deposited data

Results flagged for a closer look

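Of 46 groups of 5 arrays examined for a fish far from the others, 3 had one; chance gives about 1 in 20. P2 fish 5 in soybean meal stood apart in the slope of the control spots, at -0.16 on the log2 scale. P2 fish 1 in soybean meal stood apart in the 75th percentile of the signal, at 606 intensity units. For Omy#S15290645, the lowest corn gluten + P2 fish stood apart at a level of -5.48. The P2 difference of Omy#S15290645 was 2.11 greater (log2) in soybean meal than in corn gluten, and 14 probes passed this test in all. What moved these values was not tested.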

How the results depend on the processing

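Against 168 called probes, 10 were called from the authors' table (8 higher), 2 under normexp, 2 with slide as a fixed block and 259 with trend and robust eBayes. Alternatives chosen after seeing the data gave 59 with 50 added to the signal, 38 without soybean meal fish 3 and control fish 2 (2 under normexp without them), 459 and 711 with the array surface removed within brightness classes and over all probes, 5 with the control-spot slope as a covariate, 3 with surface and slide block and 33 with the surface removed on the 10 arrays alone. Leaving out each fish gave 3 to 459. The remaining planned settings gave 127 to 241. The share called higher was 86.3% in the main setting, 50% under normexp and with slide as a fixed block, 33.3% with surface and slide block, and 63.6% on the 10 arrays alone. Normexp raised the 5th percentile of soybean meal fish 3 to -2.05 and of control fish 2 to -1.91; the cause of its lower count was not tested. The interaction, 14 probes, was called for 0 under normexp, 0 with slide as a fixed block, 3 with slide as a random block and 0 with the surface removed.

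Fish numbers did not pair the samples: same-numbered fish correlated at -0.14 to 0.27, and 1 of 5 pairs was over 0.1. With fish number as a block, 201 probes were called (173 higher), the interaction was called for 63, and the score differed by -0.21 (exact permutation, adjusted p = 0.188). With only 5 pairs, this exact test has too few arrangements to reach a p below 0.05, so it cannot judge the score.

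The score of -0.21 passed the threshold with quantile normalization (-0.20), the authors' table (-0.22) and probes well above background on all 10 arrays (-0.19), and lay at -0.26 to -0.17 without single fish. It did not pass under normexp (-0.12, adjusted p = 0.119) or scaled to the array median (-0.18, adjusted p = 0.107), both by exact permutation. Nor did it pass with no filter on dim probes (-0.22) or the array surface removed (-0.21). Both had the adjusted p of the main setting, 0.0595 by exact permutation. With slide as a fixed block it was -0.18 ± 0.13 (SE). Over lowered probes, -0.31 became -0.30 with quantile normalization, -0.29 from the authors' table and -0.28 with probes well above background on all 10 arrays. Scaled to the array median it was -0.38, and all these settings passed the threshold. It lay at -0.37 to -0.27 without single fish. With no filter it was -0.32 and with the surface removed -0.31 (exact permutation, adjusted p = 0.0595 for both). Under normexp it was -0.19 (exact permutation, adjusted p = 0.119) and with slide as a fixed block -0.25 ± 0.15 (SE). Over raised probes it lay at -0.14 to -0.06 without single fish and was -0.05 under normexp.

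No alternative turned the direction of a named probe, but these probes were chosen on the same arrays. Of 28 settings each, Omy#S15290645 and Ssa#CA037592 lost their call in 4, Ssa#GRASP209733681 in 8 and Ssa#S35523722 in 2. Dim probes are limited by signal over background.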
